A study of Mus musculus with 8 samples.

Results

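The comparison set the 5 transgenic hearts of the series, 2 PlGF and 3 labelled PlGF/RGS4, against its 3 control hearts, so all 8 arrays of the series took part. It asked which transcripts had moved the same way in both transgenic groups. Genes were described when all 5 transgenic arrays lay on one side of all 3 controls, and then sorted by whether the group means of PlGF and PlGF/RGS4 stood equally far from control or in a graded order. Of 19933 genes measured, 1373 met that rule (6.89%), 621 with the transgenic arrays higher (3.12%) and 752 with them lower (3.77%). These genes were chosen by their values in this very comparison, so their counts and sizes are a description and carry no test.

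Each array measured total RNA of the left ventricle of C57/Bl6 mice on the Affymetrix Mouse Gene 1.0 ST array. PlGF mice carried a Tet-OFF pair of transgenes, a tTA activator under the cardiomyocyte αMHC promoter and a PlGF responder, and PlGF/RGS4 mice carried an RGS4 responder besides. Doxycycline kept the responders silent up to 5 weeks of age, and normal chow then let them be expressed for 6 weeks, so that all mice were 11 weeks old. Controls were littermates with only the responder or only the driver. Which of the 2 each control carried is not given in the sources used here, so an effect of the tTA driver and an effect of PlGF cannot be told apart. The titles number the arrays as biological replications, neither sex nor whether an array stands for a single mouse is stated, and the arrays are called hearts here.

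Placental growth factor is a ligand of the VEGF receptor family that makes the coronary vessels of the heart grow. RGS4 shortens signalling through G proteins, and in this model it was meant to interrupt the signal that vessels send to the muscle. When a ventricle enlarges, ion channel subunits, fuel oxidation genes and adult contractile genes usually lose transcript, while natriuretic peptides and fetal contractile genes usually gain it. In RNA of a whole ventricle, fewer cells of a type and less RNA per cell cannot be told apart.

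Pgf, the gene of PlGF, read 211, 349 and 387 intensity units in the controls, 4136 and 917 in the PlGF arrays and 300, 229 and 211 in hearts labelled PlGF/RGS4. It was high in both PlGF arrays and at control level in the other 3, which goes against their label, and Rgs4 overlapped the controls in both groups. PlGF replicate 1 stood apart, with a mean correlation of 0.974 with the arrays of the other groups against 0.991 to 0.993 for the rest, and results are therefore given with and without it. Xist, which silences 1 X chromosome in female cells, read 50.8, 26.9 and 36.1 in control 2, PlGF 1 and PlGF/RGS4 2 and 2581 or more in the other 5 arrays, so both sexes were present in the transgenic and in the control arrays. Markers of cardiomyocytes summed to 113260 to 116142 units in control, 103146 and 112462 in PlGF and 111849 to 112071 in the arrays labelled PlGF/RGS4. All 5 transgenic sums lay below the controls, but the list includes Nppa, a natriuretic peptide gene, and without it the sums of the groups overlapped. The median log2 change over the 10 cardiomyocyte genes was −0.03. Atrial markers summed to 3766 to 4578 in control, 5233 and 1887 in PlGF 1 and 2 and 2122 to 2699 in hearts labelled PlGF/RGS4. Thus 4 of the 5 transgenic sums lay below the controls, but most of each sum was Nppa, which is on this list too. The median log2 change over the 5 atrial genes was −0.10, and their lowest gene, Bmp10, averaged 20.3. Markers of leukocytes (9 of 10 measured) summed to 1544 to 1671, 3181 and 7538, and 1457 to 1804, and the part of these cell types in the results was not tested.

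In the pooled comparison 2 genes were higher (0.01% of all genes) and 1 was lower (0.00502%) at a limma adjusted p under 0.05. At an unadjusted p under 0.05 the numbers were 601 (3.02%) and 787 (3.95%). The 2 genes that rose were Slc17a7, which encodes the vesicular glutamate transporter VGLUT1 of nerve endings, and Casq1, which encodes the calsequestrin of skeletal muscle, a calcium store protein of the sarcoplasmic reticulum. The gene that fell was Cfap20dc, a little studied gene named for a domain it shares with a protein of cilia and flagella.

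The start regions of Slc17a7 and Casq1 are shown because these are the 2 genes that rose in the pooled test. Each run is 300 bases in the gene's own direction, from 250 before to 50 after the RefSeq start in assembly GRCm38.p6, at chr7:45163671-45163970 on the plus strand for Slc17a7 and at chr1:172219846-172220145 on the minus strand for Casq1. Capitals mark the motifs listed with the other start regions further on, and neither window holds any of them.
Slc17a7: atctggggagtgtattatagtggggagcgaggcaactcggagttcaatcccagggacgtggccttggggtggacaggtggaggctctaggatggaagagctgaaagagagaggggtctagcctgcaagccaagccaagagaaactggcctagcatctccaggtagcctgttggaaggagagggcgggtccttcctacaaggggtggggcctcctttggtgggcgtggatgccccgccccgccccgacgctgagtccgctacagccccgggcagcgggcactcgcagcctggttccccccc
Casq1: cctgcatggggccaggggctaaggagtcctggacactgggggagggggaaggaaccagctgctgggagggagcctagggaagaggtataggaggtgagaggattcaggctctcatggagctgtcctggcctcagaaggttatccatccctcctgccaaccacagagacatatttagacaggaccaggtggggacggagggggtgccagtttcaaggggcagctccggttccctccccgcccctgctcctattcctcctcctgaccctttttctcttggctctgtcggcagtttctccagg

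Slc17a7 read 259, 185 and 183 in the controls, 1018 and 909.8 in PlGF and 754, 977 and 894 in hearts labelled PlGF/RGS4. All 5 transgenic arrays lay far above the controls, and the transgenic groups overlapped each other. The pooled log2 change was 2.13 ± 0.14 (SE), a 4.37-fold rise (limma adjusted p = 0.00636), and it was 2.09 without PlGF replicate 1. PlGF and PlGF/RGS4 differed by 0.15 on the log2 scale, with a 95% interval of −0.26 to 0.55.

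Casq1 read 229.5, 261 and 214 in the controls, 675 and 604 in PlGF and 667, 558 and 752 in hearts labelled PlGF/RGS4. The lowest transgenic heart was again well above the highest control. The pooled change was 1.47 ± 0.10 (a 2.76-fold rise; limma adjusted p = 0.00668), and 1.45 without PlGF replicate 1. The transgenic groups differed by −0.03 (95% interval −0.35 to 0.28). Casq2, the calsequestrin of heart muscle, overlapped between groups, at 6152, 5507 and 5309.7 in the control arrays, 5626 and 5898 in PlGF and 5396, 5515 and 5529 in hearts labelled PlGF/RGS4.

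Cfap20dc was dim, at 70.1, 70.3 and 64.8 in the controls, 43.4 and 48.4 in PlGF and 45.4, 48.1 and 44.4 in hearts labelled PlGF/RGS4. Its change was −0.56 ± 0.05 (a 1.48-fold drop; limma adjusted p = 0.0346), and PlGF and PlGF/RGS4 stood level, with a difference of −0.0033 (95% interval −0.17 to 0.16). Within the arrays with low Xist, Slc17a7 changed by 2.42, Casq1 by 1.23 and Cfap20dc by −0.61, and within the arrays with high Xist by 1.96, 1.60 and −0.54. With sex as a block the adjusted p was 0.032 for Slc17a7 and 0.0334 for Casq1, and Cfap20dc lost its call at 0.135 (limma). The calls also rested on single arrays. Without control 3 the limma adjusted p was 0.0897 for both Slc17a7 and Casq1, and Casq1 also missed the threshold without control 1 (0.114) or PlGF/RGS4 1 (0.0525). Of the 8 fits that left out 1 array, Cfap20dc was called only in that without PlGF 1, and its limma adjusted p reached 0.296 without control 1.

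**Figure D1:**
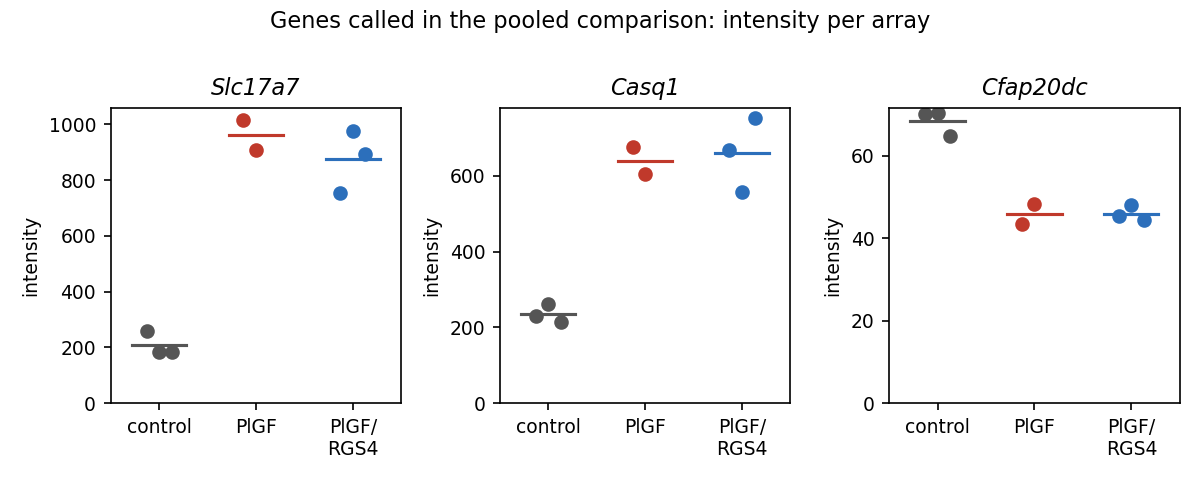
Intensity of Slc17a7, Casq1 and Cfap20dc on the linear scale in all 8 arrays, sorted by group, where a point is 1 array and a line the group mean. For Slc17a7 and Casq1 the 5 transgenic points lie above the 3 control points, for Cfap20dc below them, and PlGF and PlGF/RGS4 stand at about one height.

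The genes next to those that rose changed much less than they did. Of the 10 measured genes nearest to Slc17a7 in RefSeq order, 0 had all transgenic arrays on one side (6.89% of all genes did). Their changes ran from −0.10 to 0.28. Around Casq1 it was 1 of 10, Kcnj10, at 0.16, with changes from −0.05 to 0.18. Around Cfap20dc 2 of 10 were lower, against 3.77% of all genes. With 10 genes each, these counts cannot be told from the share over all genes. One of the lower genes was Fam107a, a stress response gene that binds actin, at −1.25. It read 327, 363 and 529.6 in the controls, 98.7 and 133 in PlGF and 316, 181 and 172 in hearts labelled PlGF/RGS4. Slc17a6, the sister transporter of Slc17a7, read 21.9 to 25.2 over all arrays.

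Among genes on one side with a pooled fold of at least 1.3, 86 were higher (0.431% of all genes) and 141 lower (0.707%). The lower genes were graded in 108 of 141 cases, the change in PlGF/RGS4 being less than 2/3 of that in PlGF, and equal in 33, with 0 farther in PlGF/RGS4. The higher genes were graded in 60 of 86 cases, equal in 24 and farther in PlGF/RGS4 in 2, Slc22a23 and Gm5592, 2 names outside the naming rule and seen only afterwards. Both PlGF arrays lay beyond all 3 arrays labelled PlGF/RGS4 in only 42 of the 86 higher and 80 of the 141 lower genes. The classes thus describe group means and not every array. Median changes were 0.73 in PlGF and 0.34 in PlGF/RGS4 for the higher genes, and −0.79 and −0.40 for the lower ones. PlGF replicate 1 was the farthest of the 5 transgenic arrays in 67 of the 86 higher and 118 of the 141 lower genes. Without it the medians of the pooled change moved from 0.46 to 0.38 and from −0.54 to −0.43, and 41 and 90 of these genes kept a fold of at least 1.3.

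**Figure D2:**
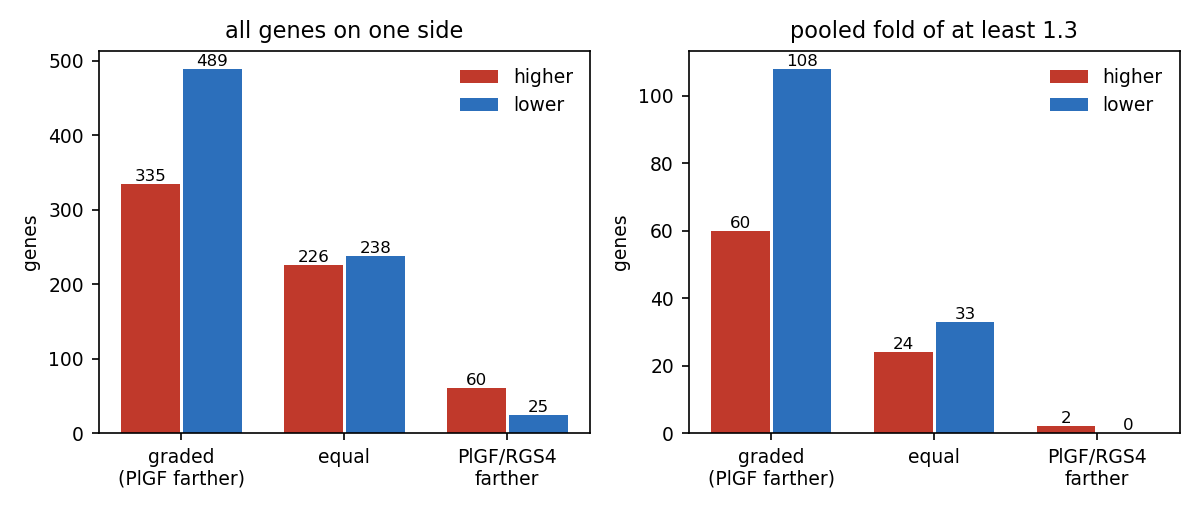
Number of genes with all 5 transgenic arrays above (red bars) or below (blue bars) the 3 controls, by class, for all such genes on the left and for those with a pooled fold of at least 1.3 on the right. Graded genes were the most frequent class in all 4 sets, and with the fold limit 2 higher and 0 lower genes stood farther out in PlGF/RGS4.

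By array, the median difference from the control mean over the 86 higher genes was 1.00 and 0.46 in PlGF 1 and 2, and 0.30, 0.35 and 0.33 in hearts labelled PlGF/RGS4. Over the 141 lower genes it was −1.05 and −0.54, then −0.33, −0.40 and −0.39. PlGF 1 thus lay about as far again from control as PlGF 2, and the 3 arrays labelled PlGF/RGS4 lay close together. Among these 3, replicate 2 lay farthest from control in 44 of 86 higher and 66 of 141 lower genes. That array has low Xist, as has PlGF 1, and the median change was 0.66 and −0.68 within the arrays with low Xist and 0.36 and −0.45 within the others. Whether sex had a part in this was not tested.

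**Figure D3:**
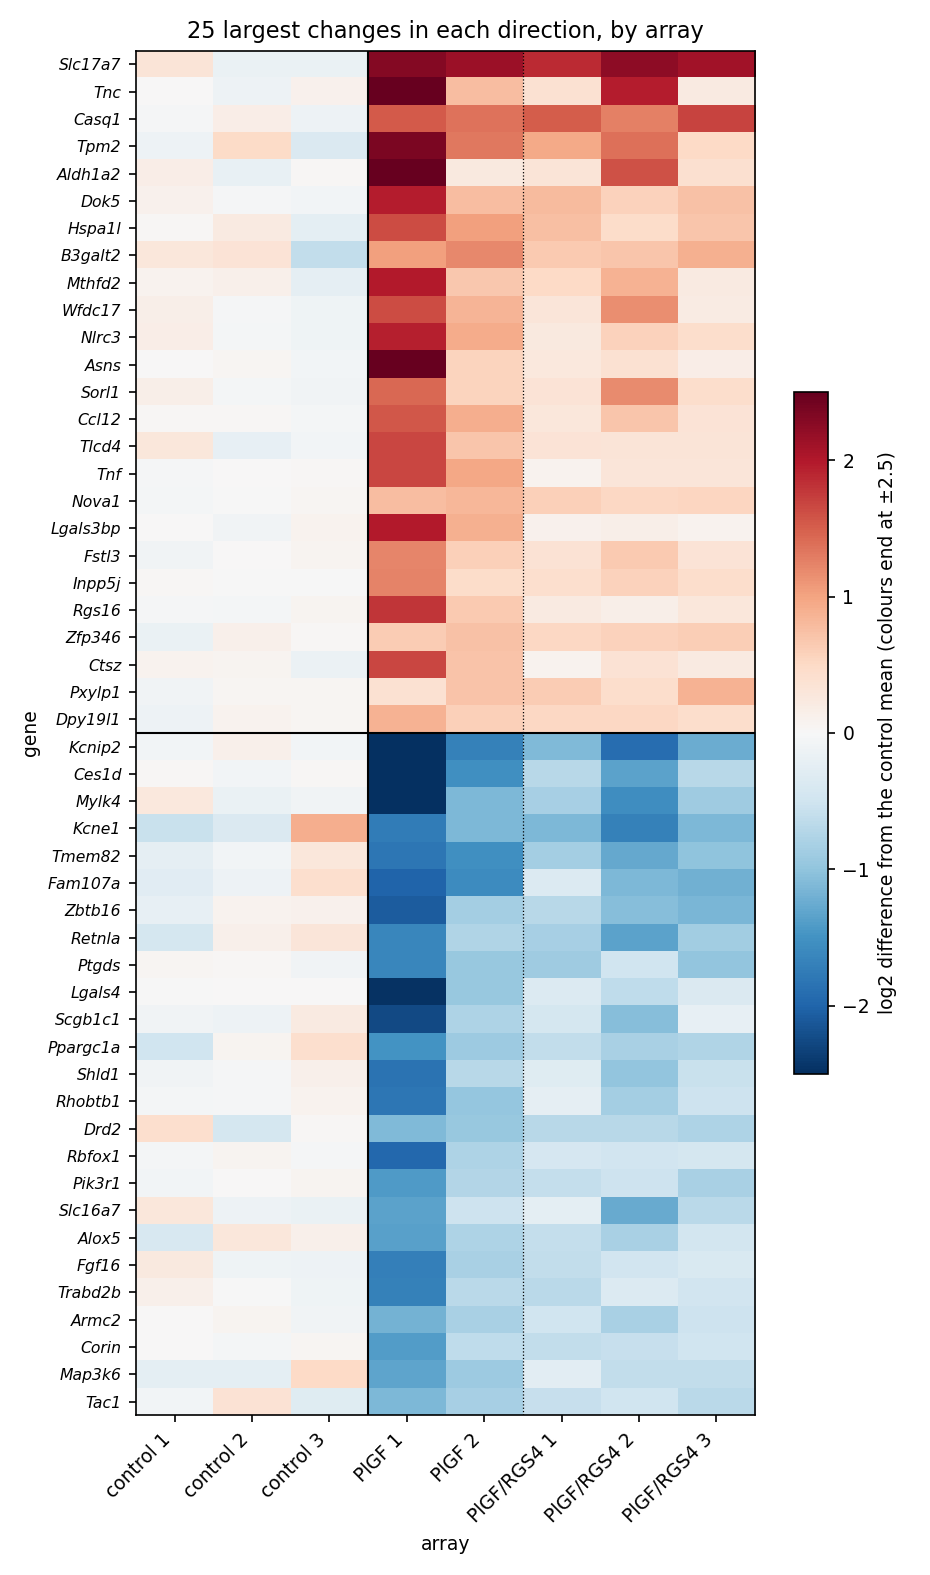
Log2 difference from the control mean for the 25 genes with the largest pooled change in each direction among genes on one side (rows, predicted names left out) in the 8 arrays (columns); red is above and blue below the control mean, and colours end at ±2.5. Slc17a7, Casq1, Zfp346 and Nova1 are nearly even across the transgenic columns, while most rows are darkest in PlGF 1.

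The difference between PlGF and PlGF/RGS4 was tested in the fit with 3 groups, where 220 genes were higher (1.1%) and 17 lower (0.0853%) in PlGF at an adjusted p under 0.05. Of the 1373 genes on one side of the controls 7 were among them, 4 of the 621 higher and 3 of the 752 lower. Leaving out any 1 of the controls or of the arrays labelled PlGF/RGS4 left 11 to 26 genes higher and 0 or 1 lower. Without PlGF 1 the counts were 262 and 11, and without PlGF 2 they were 2594 and 2997. In these last fits PlGF is a single array, assumed to vary like the other groups, which in the second is the array that stands apart. Tnf, the gene of the inflammatory cytokine TNF, read 48.1, 49.4 and 50.7 in the controls, 159 and 97.5 in PlGF and 52.7, 61.1 and 61.1 in hearts labelled PlGF/RGS4, and Icam1, the gene of an adhesion molecule that leukocytes bind, read 208, 244 and 246, 514 and 400.1 and 249, 254 and 252. In both genes the arrays labelled PlGF/RGS4 lay only just above the controls, and PlGF was higher by 1.09 and 0.85 (limma adjusted p = 0.0449 and 0.0263). The other 5 of these 7, Gpr141, Mctp2, Taf1a, Cebpzos and Gzmm, were graded as well. For the remaining graded genes a difference between the transgenic groups was not called, and the order of their group means is a description.

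The equal genes among the higher ones included Nova1, Zfp346, Cacnb1, Wfs1, Idi1 and Slc25a1. Nova1, which encodes a splicing factor of neurons, read 116, 119 and 125, then 206 and 212, then 182, 172 and 174 (control, PlGF and PlGF/RGS4 in this order here and in what follows). A second, dimmer probe set of Nova1, with a mean of 83.1, changed by only 0.22 and overlapped between transgenic and control arrays. Zfp346, which encodes a zinc finger protein that binds double-stranded RNA, read 559, 681 and 635, then 968 and 1040.5, then 896, 929.5 and 949. Neither passed the pooled test (change 0.65 ± 0.08 and 0.62 ± 0.07, limma adjusted p = 0.131 and 0.131). Both did when PlGF and PlGF/RGS4 were counted equally in the fit with 3 groups (limma adjusted p = 0.00558 and 0.0394).

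Cacnb1, the β subunit of the skeletal muscle calcium channel, read 129, 122 and 122, then 159.7 and 161, then 164, 158 and 181, a change of 0.40. Wfs1, a calcium-regulating protein of the endoplasmic reticulum, read 1793, 1606 and 1748, then 2533 and 2389, then 2279.5, 2179 and 2139 (0.42). Idi1, an enzyme of sterol synthesis, differed by 0.40, and Slc25a1, the mitochondrial citrate carrier, by 0.40. In these 4 genes the transgenic arrays all lay above the controls, and none passed the adjusted test. The genes filled in by the smallest unadjusted p to make 15 higher names were Zfp346, Nova1, Cacnb1, Wfs1, Morn4, Dpy19l1, Pxylp1, Idi1, Prkg1, Prxl2b, Metrn, Lrrc20 and Nr2c2ap, with adjusted p from 0.131 to 0.47 (limma).

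The graded genes among the higher ones had larger changes but much of them from PlGF replicate 1. Tnc, the gene of tenascin C, a matrix protein of remodelling tissue, read 43.2, 39.2 and 46.6, then 767 and 74.2, then 56.2, 169 and 50.2, and its change was 1.49 with and 0.83 without that array. Tpm2, the gene of β-tropomyosin, a thin filament protein little used in the adult mouse ventricle, read 259.8, 396 and 222, then 1446 and 713, then 547, 743 and 404, a 2.47-fold difference in the pooled means. The lowest transgenic value of Tpm2 was only just above the highest control, and PlGF 2 overlapped the arrays labelled PlGF/RGS4. Aldh1a2, which makes retinoic acid and marks the epicardium, read 134, 106 and 122, then 728 and 143, then 150.1, 361 and 159.5, with PlGF 2 only slightly above control.

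Dok5, an adaptor of receptor tyrosine kinases, read 52.4, 47.2 and 46, then 191 and 83.3, then 84.2, 72.6 and 80.8. Its change was 0.96, and without PlGF replicate 1 it was 0.71 and passed the test (limma adjusted p = 0.029), as did Inpp5j, a phosphoinositide phosphatase (561, 543 and 544, then 1297 and 752, then 736, 818 and 741; 0.47 without that array, limma adjusted p = 0.0321). Hspa1l, a heat shock protein gene of the HSP70 family, read 339.5, 389 and 281, then 1038 and 676, then 566, 460.3 and 537. Igf1, the insulin-like growth factor, read 215, 251 and 185, then 499.9 and 316, then 280.5, 288 and 279.8, a change of 0.59. Most names in this and the preceding paragraph were taken by the size of their change, and Igf1 was picked, after their values were seen.

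Of 18 measured genes of serine, asparagine and folate metabolism that the factor ATF4 is known to drive, 4 were on the higher side and 0 on the lower (22.2% against 3.12% of all genes), and 0 passed the adjusted test. Mthfd2, a mitochondrial folate enzyme, read 124, 127 and 99.7, then 461 and 187, then 166, 214 and 135, and Asns, asparagine synthetase, read 229, 235 and 215, then 1362 and 332, then 273, 293 and 252. Slc7a5, a subunit of the leucine transporter, read 268, 263 and 296, then 762 and 319.7, then 325, 356 and 307, while Atf5 differed by only 0.16. The arrays labelled PlGF/RGS4 were above every control in all 4, by much less than PlGF 1. The median over the list was 0.13, against −0.01 over all genes, and 0.07 without PlGF replicate 1.

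Among potassium channel genes of repolarization 2 of 22 lay on the lower side (9.09% against 3.77% of all genes) and 0 on the higher. Kcnip2, which encodes KChIP2, the subunit that traffics the channels of the transient outward current, read 1881, 2165 and 1889.6, then 166 and 608, then 915, 529 and 837. Its pooled change of −1.90 ± 0.51 was the largest among named genes that lay lower, a 3.74-fold difference, yet the spread between the transgenic hearts left it at a limma adjusted p of 0.567. In PlGF/RGS4 the change was −1.41, which is 53.7% of that in PlGF (−2.63). The transgenic groups differed by −1.22 (95% interval −2.37 to −0.07, limma adjusted p = 0.237).

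Kcne1, the gene of the MinK subunit of the slow delayed rectifier, read 98.5, 113 and 274, then 42.6 and 66, then 66, 44.2 and 66. It was as low in the arrays labelled PlGF/RGS4 as in PlGF, and 1 control was far above the other 2. The gene is dim in the transgenic arrays, and its value of 66 recurs exactly on PlGF 2 and on PlGF/RGS4 1 and 3. Kcnd2, the pore of the transient outward channel that KChIP2 serves, read 848, 1062 and 1226, then 349.7 and 677, then 848, 716 and 975 and overlapped. Over the list the median was −0.36 in PlGF and −0.03 in PlGF/RGS4.

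Other graded genes with large differences on the lower side act in metabolism, contraction and transcription. Ces1d, a carboxylesterase that cuts stored lipid, read 2196, 2042 and 2185, then 123 and 743, then 1327, 840.3 and 1327, a change of −1.67 and of −1.06 without PlGF replicate 1. Mylk4, a myosin light chain kinase of striated muscle, read 3276, 2426 and 2569.9, then 329 and 1249, then 1547, 934 and 1478 (−1.49 and −1.10). In both, every transgenic heart was far below every control. Zbtb16, a transcription repressor that glucocorticoids induce, read 3298, 4028 and 4076, then 895 and 2088, then 2334, 1814 and 1708, and Tmem82 read 318, 355 and 451, then 106 and 127, then 206, 153 and 183.

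**Figure D4:**
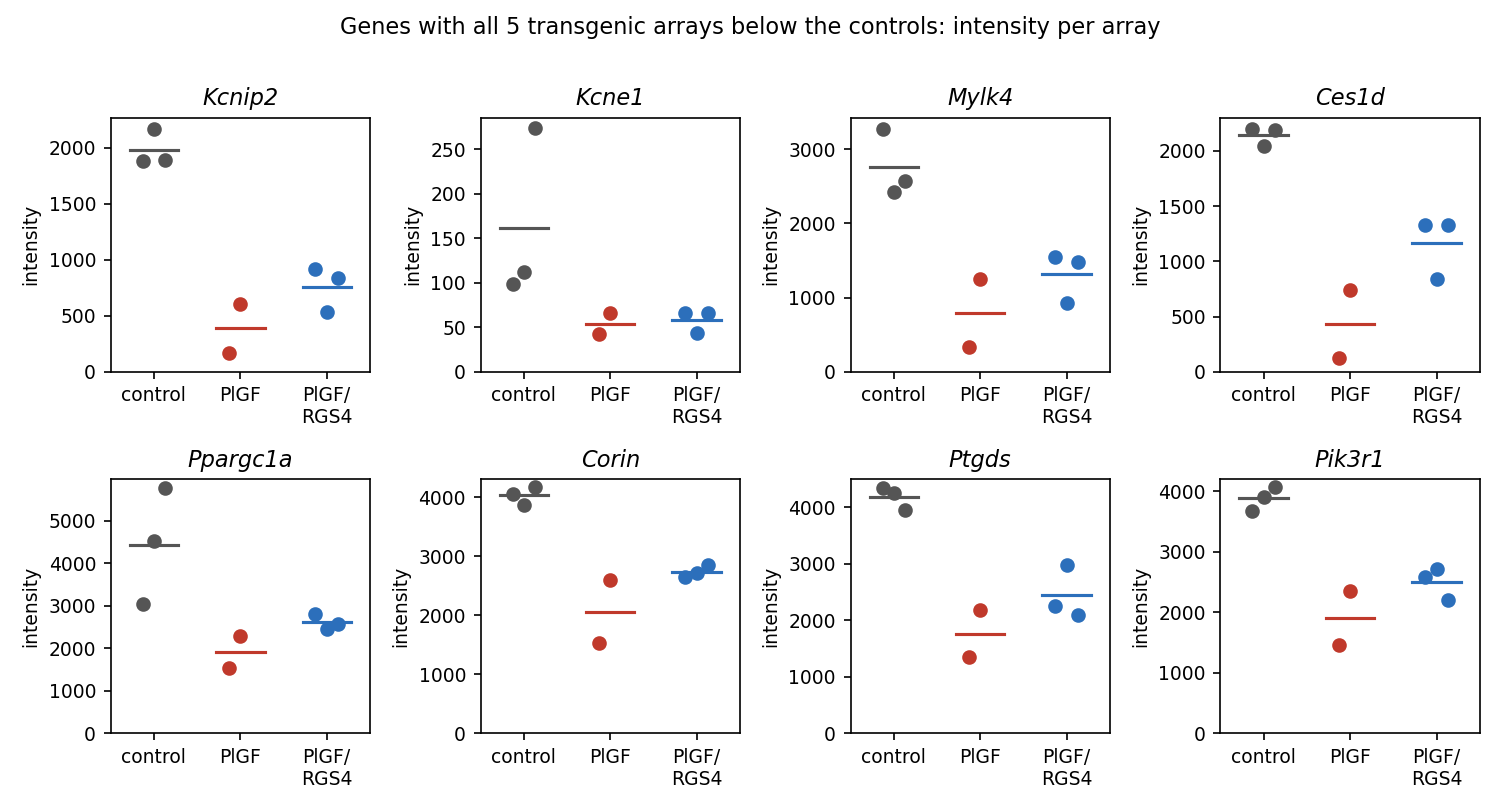
Intensity on the linear scale of 8 genes with all 5 transgenic arrays below the controls, by group; each point is 1 array and each line the group mean. In 7 of the 8 panels the mean of PlGF lies below that of PlGF/RGS4 and both below control, and in Kcne1 the means of the transgenic groups are about level.

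The lower genes filled in by the smallest unadjusted p were D7Ertd443e, Raph1, Zfp961, Mfsd4b1, Slc2a12, Tmem82, Nampt, Cep126, Fbxl22, Shisa6, Tmem150c, Zfp30, Angpt1 and Cd163, and none passed the pooled test. With Cfap20dc, 12 of these 15 were equal and 3 graded. The pooled spread includes the difference between the transgenic groups, so ranking by its p favours equal genes. Of the 25 largest changes on the lower side, predicted names left out, 21 were graded and 4 equal. In 13 of these 25 both PlGF arrays lay beyond all arrays labelled PlGF/RGS4. Raph1, the gene of lamellipodin, which guides actin at the cell edge, read 1596, 1599 and 1658, then 1028 and 1119, then 1136, 1232 and 1010.2, a difference of −0.55. Nampt, the enzyme that recycles nicotinamide into NAD, read 3130.1, 3242 and 2625, then 2091 and 2345, then 2123, 2272 and 2251 (−0.43). Slc2a12, the gene of the glucose transporter GLUT12, read 338, 334 and 304, then 199.5 and 188, then 233, 249 and 214 (−0.59). In these 3 genes the transgenic arrays all lay below the controls (limma adjusted p = 0.131, 0.398 and 0.398).

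Of 15 measured genes of the PGC-1, PPAR and ERR group, regulators of mitochondrial and fatty acid metabolism, 4 were on the lower side and 0 on the higher (26.7% against 3.77% of all genes), 11 overlapped, and 0 passed the adjusted test. The median over the list was −0.07, and −0.05 without PlGF replicate 1. Ppargc1a, the gene of the coactivator PGC-1α that drives mitochondrial biogenesis, read 3031, 4519.7 and 5766, then 1524 and 2281, then 2796, 2460 and 2562, a change of −0.91 ± 0.25 (limma adjusted p = 0.567), and its second probe set gave −1.16. Ppargc1b, its relative, read 602, 509.5 and 670, then 383 and 409, then 458, 420.3 and 488, and Ppara, the nuclear receptor for fatty acids, read 1265, 1584 and 1771, then 589 and 1026, then 1230.4, 1061 and 1168. For Ppara 1 array labelled PlGF/RGS4 came close to the lowest control, whereas Pparg, at −0.29, was near equal in both groups.

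The enzymes of the pathways these regulators control lay close to control in the arrays labelled PlGF/RGS4. Over the 106 measured genes for fatty acid handling, branched chain amino acid breakdown, the citrate cycle and the respiratory chain, 18 lay on the lower side (17% against 3.77% of all genes), 0 on the higher (3.12% of all), and 0 reached a pooled fold of 1.3. Their median difference from the control mean was −0.49 in PlGF 1, −0.10 in PlGF 2 and −0.04, −0.02 and −0.02 in PlGF/RGS4. Hadhb, a subunit of the trifunctional enzyme of β-oxidation, read 7761, 7804 and 7778, then 4818 and 6787, then 7247, 7104 and 7247. Oxct1, the enzyme that lets muscle burn ketone bodies, read 4508, 4620.1 and 4108, then 2542 and 3669, then 3579, 3742 and 3671. Ndufb8 of complex I was −0.19 with and −0.13 without PlGF replicate 1, and Idh2 of the citrate cycle −0.27 and −0.15.

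Of 21 genes of the adult sarcomere and Z-disc 5 were on the lower side (23.8% against 3.77% of all genes) and 0 on the higher, with 0 called. Lrrc10, a protein of the Z-disc region of heart muscle, read 3312, 2908 and 3726, then 1309 and 1812, then 2687, 2434 and 2454, Tpm1, the main tropomyosin of the heart, read 12153, 12302 and 12424, then 9305 and 10641, then 10728, 10746 and 10799.6, and Myh7b, a slow myosin heavy chain gene, read 517, 604 and 573, then 166 and 474, then 495, 290.4 and 507. Tpm1 thus read a little lower where Tpm2 read higher. Of 14 genes of the intercalated disc, Pkp2, Dsp and Dsg2 were on the lower side (21.4% against 3.77%) and Vcl on the higher (7.14% against 3.12%). Pkp2, the gene of plakophilin 2, was at 2189, 2293 and 1994, then 1641 and 1767, then 1844, 1894 and 1789. Ryr2, the calcium release channel of the heart, read 8408, 7892 and 7694, then 3573 and 6479, then 6794, 7289 and 6632, and its change shrank from −0.42 to −0.23 without PlGF replicate 1.

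Genes of secreted factors and their processing were among the graded genes too. Corin, the protease that activates natriuretic peptides, read 4059.5, 3873 and 4173, then 1525 and 2589.9, then 2639.5, 2711 and 2844. Its 3 PlGF/RGS4 values lay within a narrow range, and without PlGF replicate 1 its change of −0.58 passed the test (limma adjusted p = 0.0161), against −0.75 and 0.557 with it. Nppa and Nppb, the peptides themselves, overlapped between the groups, Nppa at 3693, 4096 and 3185, then 4682 and 1424, then 1661, 2224 and 1724, and Nppb at 2569, 1684 and 1516, then 7711 and 2227, then 994, 1049 and 1506. The fetal genes Myh7 and Acta1 overlapped as well. Of 17 genes of the fetal and stress program only Xirp2, an actin-binding protein of muscle, was on one side, the higher (5.88% against 3.12%). It read 3782, 3741 and 3195, then 7337 and 4535, then 4058, 4475 and 4210.1.

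Ptgds, a synthase of prostaglandin D2, read 4349, 4251 and 3955, then 1355 and 2173, then 2255, 2973 and 2102, and Fgf16, a growth factor of heart muscle, 999, 776 and 765, then 256 and 477, then 547, 605 and 646. Angpt1, the ligand of Tie2 that steadies vessels, read 467, 396 and 559, then 256 and 279.9, then 289, 356 and 293, about equal in both transgenic groups. Of 22 genes of sprouting endothelium Angpt1, Hey1 and Jag1 were on the lower side (13.6% against 3.77%) and 0 on the higher. Of 24 genes of endothelial identity Cdh5, Fli1 and Icam1 were on the higher side (12.5% against 3.12%) and 0 on the lower, with Cdh5, the gene of VE-cadherin, at 3336, 3314 and 3217, then 3986 and 4127, then 3369, 3482 and 3612. The summed markers of endothelium read 10377 to 10797 in control, 12480 and 12685 in PlGF and 10378 to 10877 in the arrays labelled PlGF/RGS4.

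Of 22 measured FoxO factors, atrogenes and mTORC1 brakes, Foxo3 and Sesn1 were on the lower side and 0 on the higher (9.09% against 3.77% of all genes), and 20 overlapped. Pik3r1, which is on none of the lists and was picked by the size of its change, a regulatory subunit of PI3 kinase, read 3678, 3908 and 4069.5, then 1452 and 2344, then 2584, 2712 and 2204. Foxo3, the transcription factor that insulin signalling restrains, read 899.5, 938 and 836, then 511 and 720.3, then 734, 679 and 706, and Sesn1, a brake on mTORC1, read 2685, 3033 and 2982, then 1237 and 2033, then 2353, 2210.4 and 2172. In all 3 the group means fell in the order control, PlGF/RGS4, PlGF, and none passed the pooled test (limma adjusted p = 0.47, 0.571 and 0.672). In Pik3r1 and Foxo3 the higher PlGF array lay within the range of the arrays labelled PlGF/RGS4. In Sesn1 both PlGF arrays lay below that range. Of 9 candidates that the study listed from these arrays, Agtpbp1, Akap7 and Foxo3 were on the lower side (33.3% against 3.77% of all genes). Pink1, Slc25a42, Mccc1, Adcy6, Pcx and Bcat2 overlapped. The study picked all 9 on these samples for low transcript in PlGF and not in PlGF/RGS4, and from a database of microRNA targets. Neither their direction nor their overlap here is therefore independent evidence. Their median was −0.53 in PlGF and −0.04 in PlGF/RGS4. By qPCR the study reported lower Bcat2, Foxo3 and Adcy6 in PlGF mice than in controls.

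The lists with the largest changes in PlGF had no gene on one side of the controls. Of 22 interferon response genes and 8 class II antigen presentation genes 0 lay on one side, against 6.89% of all genes. Lists this short can hold 0 at that share, so the count says little about them. Their medians were 2.18 and 2.28 in PlGF and −0.00 and −0.50 in PlGF/RGS4. Cd74, the class II invariant chain, read 1052, 1062 and 1052, then 7518 and 3108, then 622, 383 and 766, so that the arrays labelled PlGF/RGS4 lay below control and PlGF above. Of 21 genes of macrophages and other leukocytes only Cd163, a scavenger receptor of resident macrophages, was on one side, the lower (4.76% against 3.77%), at 272, 258 and 256, then 182 and 199, then 204, 225 and 177. Among 12 reference genes 3 were on the higher side (25% against 3.12%), and Actb, which encodes β-actin, read 9416, 9729 and 10253, then 15870.1 and 13212, then 10821, 10288 and 11157. For cytosolic ribosomal proteins it was 0 of 24, and for the constitutive proteasome 1 of 27 (0% and 3.7% against 3.12%). Both counts are near the share over all genes. Over all 41 lists 85 of 712 measured genes lay on one side (11.9% against 6.89% of all genes), and the lists were drawn up with earlier results of these arrays known.

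Further start regions are shown for 3 genes that lay lower in both groups and whose window holds a searched motif, in the same layout as for Slc17a7, at chr5:51567676-51567975 (minus strand) for Ppargc1a, chr2:25469700-25469999 (minus strand) for Ptgds and chr2:155610993-155611292 (plus strand) for Myh7b. Capitals mark an interferon element in Ppargc1a, a D-box and an AP-1 site in Ptgds, and an E-box and an ERR element in Myh7b.
Ppargc1a: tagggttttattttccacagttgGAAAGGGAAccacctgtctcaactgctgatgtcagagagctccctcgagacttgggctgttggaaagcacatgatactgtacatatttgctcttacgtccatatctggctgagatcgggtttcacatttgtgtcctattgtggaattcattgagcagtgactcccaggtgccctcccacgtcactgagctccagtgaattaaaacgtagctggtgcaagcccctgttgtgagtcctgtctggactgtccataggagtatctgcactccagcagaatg
Ptgds: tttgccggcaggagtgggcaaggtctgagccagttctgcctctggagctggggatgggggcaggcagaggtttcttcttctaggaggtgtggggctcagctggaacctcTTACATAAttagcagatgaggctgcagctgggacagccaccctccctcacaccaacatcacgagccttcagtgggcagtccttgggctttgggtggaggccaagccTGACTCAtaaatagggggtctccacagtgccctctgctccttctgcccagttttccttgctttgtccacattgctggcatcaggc
Myh7b: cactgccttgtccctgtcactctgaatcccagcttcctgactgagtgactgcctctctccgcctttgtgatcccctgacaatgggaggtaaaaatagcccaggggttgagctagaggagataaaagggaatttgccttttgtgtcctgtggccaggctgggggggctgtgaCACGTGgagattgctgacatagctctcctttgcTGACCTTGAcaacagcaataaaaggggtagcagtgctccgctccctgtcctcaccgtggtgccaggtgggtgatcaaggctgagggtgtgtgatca

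The motifs were searched on both strands in the first RefSeq start region listed for each gene, which 15610 measured genes have, among them 68 of the 86 higher and 108 of the 141 lower genes. The interferon element GAAANNGAA was in 13% of the lower, 4.41% of the higher and 7.94% of all windows. The cAMP response element TGACGTCA was in 5.56%, 2.94% and 2.49%. The E-box CACGTG was in 6.48%, 10.3% and 8.39%, and the AP-1 site TGANTCA in 3.7%, 5.88% and 6.98%. The forkhead site GTAAACA was in 2.78%, 1.47% and 3.02%. The D-box TTATGTAA and the ERR element TCAAGGTCA were each in 1 of the 108 lower and 0 of the 68 higher windows, against 0.852% and 0.301% of all. These shares describe letters in the windows, and no test was made.

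The described genes also differed in control level. This level is not independent of the rule, since a lower gene had to stand higher in the controls. The median control intensity was 693 for the 141 lower genes, 234 for the 86 higher genes and 134 for all genes. A control mean under 100 units was found in 7 of the 141 lower and 16 of the 86 higher genes, against 43.9% of all genes. By chromosome, between 0.539% (X) and 2.02% (10) of the measured genes were among the 227 described genes, against 1.14% over all.

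At the edge of the rule, Pcna was just inside on the higher side, with a highest control of 940.8 and a lowest transgenic array of 941, and Crim1 just inside on the lower side, with a lowest control of 993.8 and a highest transgenic array of 993.7. 1700009J07Rik and 1700021F07Rik were just outside, each with a value that control and transgenic arrays share, 33.7 and 87.3 units.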

How the data were processed

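The authors deposited 1 linear intensity per probe set and array, made with MAS5 and global scaling as their methods and the submitters' processing notes state; the settings could not be checked here. Values ran from 7.1 to 21704, array medians from 111.1 to 115.2, and the sorted values of the arrays differed by a median of 3.94%, so the arrays had been brought to nearly one distribution, and a shift of all transcripts could not be seen. Exact values recur between arrays, in 11203 of 19933 genes (56.2%) and in 498 of 2147 with a mean over 1000 (23.2%), and 545 genes hold one value on all 3 arrays labelled PlGF/RGS4. Another normalization than the one stated may have been applied, and recurring values lower the spread that the tests use. The number of columns not used was 0.

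Of 28440 probe sets, 21780 with 1 gene symbol were kept (1618 had several, 5042 have none here), and the brightest per gene gave 19933 genes. Fold changes are of log2(intensity + 1), which understates the change of dim genes. limma 3.58.1 in R 4.3.3 (lmFit, eBayes) fitted 5 transgenic against 3 control arrays, and a fit with 3 groups gave PlGF against PlGF/RGS4, with Benjamini-Hochberg adjustment over all genes and a threshold of 0.05. The p-values measure the spread between these arrays, and their number limits the precision. Scripts were tested on simulated data.

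Named genes were, per direction, up to 15 with the largest change among called genes whose groups do not overlap, filled up by unadjusted p from those with a fold of at least 1.3, without predicted names (2 higher and 6 lower of the described genes); the 4 genes of each list with the smallest p; the study's 9 candidates; Pgf, Rgs4 and Xist; and the genes at the edge of the rule. The 25 largest changes per direction, the genes that differed between the transgenic groups, other genes on one side and genes that overlap were named after their values were seen. Members and gene lists were chosen with earlier results of these data known. Alternatives were other normalizations, filters, probe set rules, pseudocounts, priors and weights, blocks for sex and replicate number, the methods' t-test, and each array left out; leaving out the 3 arrays with low Xist was chosen after seeing the data.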

Additional observations from a re-analysis of the deposited data

Results flagged for a closer look

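Of the 1373 genes on one side of the controls, 7 differed between the transgenic groups by the test of that difference in the fit with 3 groups (log2, PlGF minus PlGF/RGS4). Tnf differed by 1.09 and Icam1 by 0.85 (limma adjusted p = 0.0449 and 0.0263). Gpr141, an orphan receptor gene, differed by 1.12 and Mctp2 by 0.31 (limma adjusted p = 0.0411 and 0.0485). Both are dim, with controls at 16.2, 14.4 and 17 for Gpr141 and 13.6, 14.1 and 14.9 for Mctp2, and Mctp2 has the same value, 15, on all 3 arrays labelled PlGF/RGS4. Taf1a, a factor of ribosomal RNA transcription, differed by −0.67, Cebpzos by −0.39 and Gzmm, a granzyme gene, by −0.36 (limma adjusted p = 0.0454, 0.0333 and 0.0466). In Taf1a the controls read 693, 771 and 731, the PlGF arrays 337 and 446 and the arrays labelled PlGF/RGS4 635, 593 and 618. In all 7 both PlGF arrays lay beyond all 3 arrays labelled PlGF/RGS4.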

How the results depend on the processing

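The numbers of genes called in the pooled comparison (2 higher, 1 lower) moved with most settings. Counting PlGF and PlGF/RGS4 equally gave 12 and 5, array weights gave 2 lower, and the filter at the median level, all probe sets and sex as a block each gave 0 lower. The methods' t-test gave 0 and 0 after Benjamini-Hochberg adjustment and 1235 genes at their unadjusted threshold (549 higher, 686 lower), and leaving out the 3 arrays with low Xist, chosen after seeing the data, gave 0 and 0 (limma, with 718 and 734 at an unadjusted p under 0.05). Leaving out 1 array gave 0 to 4 higher and 0 to 8 lower. A block for the replicate number left 0 and 0 calls in the pooled comparison (limma, with 452 and 578 at an unadjusted p under 0.05), and PlGF against PlGF/RGS4 called 26 higher and 0 lower. Deviations of same-numbered arrays correlated at −0.217 to 0.296, so the numbers were not taken to pair the samples. For PlGF against PlGF/RGS4 (220 higher, 17 lower), the filter at the median level gave 99 and 11, a pseudocount of 16 gave 125 higher, quantile normalization and centring each gave 31 lower, and leaving out the arrays with low Xist gave 49 and 1. Leaving out 1 array gave 11 to 2594 higher and 0 to 2997 lower, and both upper ends come from the fit whose PlGF group is PlGF 1 alone, with no replicate and its spread taken from the other groups. The numbers of genes on one side were 748 to 1355 higher and 824 to 1523 lower without 1 array, and 2123 and 1944 without the 3 arrays with low Xist, since fewer arrays make the rule easier to meet. Of 221 named genes 3 changed sign in any of 21 settings, and the cause was not tested. Hibadh was at 0.022 with the mean of its probe sets. With 1 array left out Slc25a42 ran from −0.29 to 0.0079 and Pcx from −0.21 to 0.013, both above 0 without PlGF replicate 1.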
